A study of Mus musculus with 15 samples.

Results

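The genes of the cytosolic ribosomal proteins were followed in mouse cerebellum, in granule neuron precursors and in medulloblastoma cells. The family was taken as every gene whose symbol starts with Rpl or Rps and a digit, leaving out 48 pseudogenes with -ps in the symbol and 10 S6 kinase genes (Rps6k). This gave 78 of the 21889 genes in the gene count table, of which 75 were also found in the transcript count table. Granule neuron precursors are the dividing cells that form the granule neurons of the cerebellum, and medulloblastoma is a tumour that can arise from them. Poly(A) RNA was sequenced in 15 libraries, 3 per group. The E15.5 precursors are labelled Math1-GFP by genotype. Those of P1, P7 and P14 are labelled wild type. For the tumour group (MB) the labels give Ptch1 heterozygous mice and leave the age out. All cells were purified on Percoll. At E15.5 the genotype differs from that of the postnatal groups along with the age, so the effects of genotype and age cannot be told apart in any comparison with E15.5. MB differs from the other groups in tumour state and genotype, and its age is not given. The effects of these 3 cannot be told apart in any comparison with MB.

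A ribosome has a large subunit, built of ribosomal RNA and the Rpl proteins, and a small subunit, built of ribosomal RNA and the Rps proteins, and each protein is normally present once per ribosome. Most messenger RNAs of these proteins start with a C followed by a run of pyrimidines (the 5′ terminal oligopyrimidine motif, TOP), through which the mTOR pathway controls their translation. Dividing cells make many ribosomes, and MYC proteins are known to raise the transcription of ribosomal protein genes. The family has many processed pseudogenes, copies of its messenger RNAs inserted elsewhere in the genome, so that a short read from a ribosomal protein messenger RNA often matches several places.

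To show the shared start, the 30 bases around the annotated transcription start (15 before it, 15 from it on) are given for the 11 family genes in which the first transcribed base is a C followed by at least 4 C or T. Capitals mark that pyrimidine run, as far as it reaches in the window. The sequences are RefSeq promoter sequences of build GRCm38.p6, which held 58 of the 78 genes.
Rpl14, chr9:120571502-120571531, + strand: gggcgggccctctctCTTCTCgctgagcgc
Rpl28, chr7:4792950-4792979, + strand: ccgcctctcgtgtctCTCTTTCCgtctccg
Rpl35, chr2:39005117-39005146, - strand: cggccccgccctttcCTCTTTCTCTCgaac
Rpl35a, chr16:33056467-33056496, + strand: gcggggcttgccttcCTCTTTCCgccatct
Rpl38, chr11:114668565-114668594, + strand: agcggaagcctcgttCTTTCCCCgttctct
Rps10, chr17:27635230-27635259, - strand: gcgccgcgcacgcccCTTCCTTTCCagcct
Rps15a, chr7:118116133-118116162, - strand: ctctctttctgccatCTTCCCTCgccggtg
Rps18, chr17:33955651-33955680, - strand: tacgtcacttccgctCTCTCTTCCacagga
Rps27, chr3:90213634-90213663, - strand: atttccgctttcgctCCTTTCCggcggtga
Rps27rt, chr9:114982725-114982754, - strand: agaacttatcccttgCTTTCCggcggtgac
Rps6, chr4:86857353-86857382, - strand: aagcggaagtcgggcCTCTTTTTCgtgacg
Of the 58 family genes, 11 (19.0%) had such a start, against 813 of 27025 genes (3.01%) in the whole promoter table. The match depends on the annotated start, so a start placed a few bases off hides the motif. The letters CCGGAAG, on either strand of the 300-base promoter, were found in 21 of 58 family genes (36.2%) and in 9.93% of all genes. The letters CACGTG, which read the same on both strands, were found in 5 of 58 (8.62%) and in 8.09% of all genes.

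The libraries held 12597472 to 43443132 counts in genes, with a median of 26581102. Of each library's records, 22.9% to 44.6% had several alignments. E15.5 replicate 3 and MB replicate 1 stood above the rest with 42.2% and 44.6%. The libraries also fell into 2 sets by a gene outside the family, Tsnax, whose gene-table count was at most 0.273% of its transcript-table count in 6 libraries (E15.5 replicates 1 and 3, all of P7, MB replicate 1) and at least 92.4% in the other 9. These are called counting sets 1 and 2 here. P7 lies wholly in set 1, while P1 and P14 lie wholly in set 2, so the set and the age cannot be told apart in comparisons of P7 with P1 or P14. Summed over 11 marker genes, granule neuron precursor markers were at 3230 to 4911 CPM at E15.5, and at 5110 to 6194 (P1) and 6291 to 7769 (P7). They were at 4546 to 5237 CPM in P14 libraries and 8651 to 9739 in MB. The 11 did not all go 1 way in MB. Against P14, 7 were called higher (63.6%, against 22.9% of all genes) and 3 lower (27.3%, against 27.2%). Against P7, 5 were called higher (45.5%, against 13.7%) and 2 lower (18.2%, against 20.7%). At P14, 4 of the 11 (36.4%, against 4.51% of all genes) were called lower than at P7 and none higher. Of 10 maturing granule neuron markers, 4 (40%, against 5.81%) were called higher at P14 than at P7 and none lower. In MB 9 of these 10 (90%, against 27.2%) were called lower than at P14, and 6 (60%, against 20.7%) lower than at P7. The P14 libraries are nevertheless labelled as precursors. CPM values are counts relative to library size, with the sizes adjusted by the TMM method. Markers of other cells differed between groups as well. The 6 choroid plexus markers summed to 97.2 to 379 CPM (E15.5), 407 to 10509 (P1), 52.4 to 2031 (P7), 5191 to 8584 (P14) and 54.9 to 279 (MB). The 9 oligodendrocyte markers summed to 6190 to 6760 CPM at P14 and to at most 4020 in every other library, and the 7 endothelial markers to 304 to 784 CPM in the postnatal libraries and at most 35.4 at E15.5 and in MB. All 9 oligodendrocyte, 8 astroglia, 7 endothelial and 7 pericyte and fibroblast markers were called higher at P1 than at E15.5 (100%, against 25.4% of all genes). Of 7 GABAergic interneuron markers, 2 were higher (28.6%) and 4 lower (57.1%, against 20.9%). Of 7 Purkinje cell markers, 2 were called each way (28.6%). The 9 microglia and macrophage markers summed to 5.68 to 27.3 CPM at E15.5, 87.9 to 148 (P1), 51.3 to 158 (P7), 150 to 218 (P14) and 181 to 470 (MB). In MB 6 of the 9 (66.7%, against 13.7% of all genes) were called higher than at P7. Over P14 it was 5 (55.6%, against 22.9%), and none was called lower in either comparison. No marker was at 0 in all libraries, and the part of these cells in the results below was not tested. In such bulk samples, fewer cells of a type and less RNA per cell cannot be told apart.

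Family genes kept very different parts of their reads in the gene table. The gene table leaves out reads with several alignments, and the transcript table counts reads over each transcript. For 72 members with a mean of at least 50 counts in the transcript table, the gene-table count had a median of 21.3% of the transcript-table count, from 0.949% (Rps6) to 99.7% (Rps19bp1). Over 12819 other genes the median was 98.0%. In 24 members the share was under 10%, in 24 it was 10 to 50%, in 15 it was 50 to 90% and in 9 it was 90% or more. The last 9 were Rpl7l1, Rpl32, Rpl8, Rps3, Rpl4, Rpl22, Rps15, Rps4l and Rps19bp1, and their values differ little between the tables. Rps19bp1 meets the symbol rule but encodes a protein that binds Rps19, not a ribosomal protein. Single-exon copies met the rule too: 6 of the 75 members with a gene model had 1 exon (Rpl10l, Rpl6l, Rps27rt, Rps3a2, Rps3a3, Rps4l).

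**Figure D1:**
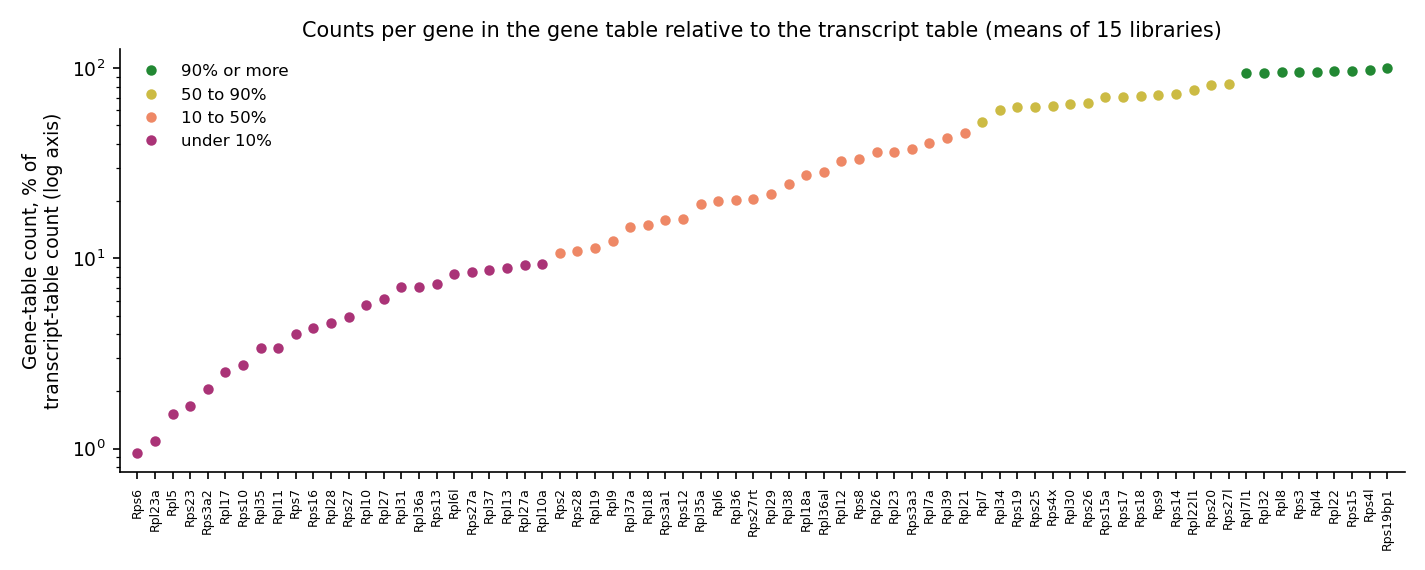
Gene-table count as a percent of transcript-table count (log axis, means of 15 libraries) for 72 ribosomal protein genes in order of that percent; colours mark the 4 ranges. The points run from 0.949% for Rps6 to 99.7% for Rps19bp1, with 24 genes under 10%.

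The mean share of counts in the family was smallest at P14. It was largest at E15.5, where that rank rested on 1 library. In the gene table the 78 genes held 0.887%, 0.725% and 1.58% of counts in the E15.5 libraries and 0.869%, 0.763% and 0.581% in the P1 libraries. The P7 libraries were at 0.599%, 0.584% and 0.695%, the P14 libraries at 0.421%, 0.585% and 0.532%, and the MB libraries at 0.684%, 0.883% and 0.964%. The group means were 1.06% ± 0.455 (SD, n = 3) for E15.5 and 0.738% ± 0.146 for P1. They were 0.626% ± 0.0603 for P7, 0.513% ± 0.0836 for P14 and 0.844% ± 0.144 for MB. E15.5 replicate 3 lay far above the other libraries, and without it the E15.5 mean was 0.806%, below that of MB. E15.5 overlapped with P1 and MB, and P1, P7 and P14 overlapped with their neighbours in that order, whereas all MB libraries lay above all P14 libraries. The transcript table gave larger shares with the means in the same order. They were 1.82% ± 0.706 for E15.5, 1.51% ± 0.287 for MB, 1.35% ± 0.263 for P1, 1.09% ± 0.131 for P7 and 0.929% ± 0.151 for P14. Without E15.5 replicate 3 the E15.5 mean was 1.41% there, again below MB. No test was made on the shares.

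**Figure D2:**
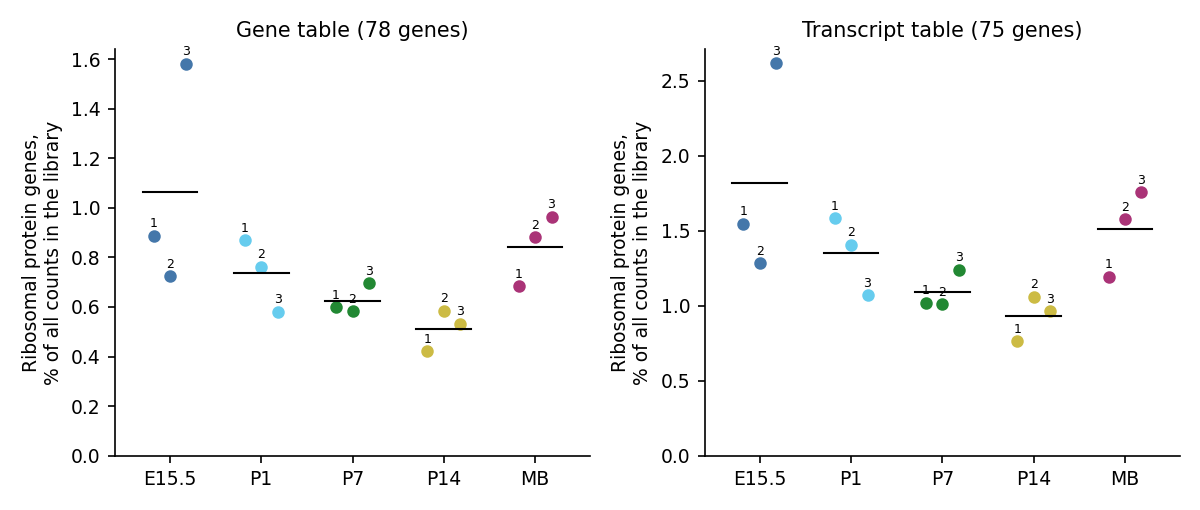
Share of each library's counts in ribosomal protein genes (percent, axis from 0) by group, in the gene table (left) and the transcript table (right). Points are libraries with their replicate number and bars are group means; E15.5 replicate 3, at 1.58% and 2.62%, is the highest point in each panel.

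Most members moved with one another from library to library. Of the 74 members with enough counts to be tested, 46 had a Pearson r of at least 0.7 between their log2 CPM and the mean log2 CPM of the other members over 15 libraries, with a median r of 0.76. The closest were Rpl22 (0.96), Rps23 (0.94) and Rps15 (0.93), and the lowest were Rps18 (-0.27), Rpl21 (-0.22), Rps2 (-0.19) and Rps4l (-0.11). Outside the family, Eef1b2 (0.97), a subunit of the elongation factor that reloads Eef1a with GTP, Polr1c (0.96), a subunit of RNA polymerases I and III, and Ran (0.95), the GTPase of nuclear transport, were most like the member mean. These r values are descriptions over libraries that share groups and depth, and no such share is given for other gene sets. The mean log2 CPM of the members was 5.93 in E15.5 replicate 3 and 4.25 to 5.48 in the other libraries. No r without that library is given.

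Per kilobase of transcript, and only comparing genes within 1 table, the highest members of the gene table were Rpl8 at 849 ± 440 CPM per kb (SD, n = 15 libraries), Rpl4 at 847 ± 379 and Rps15 at 657 ± 382. Rpl4 and Rpl8 are large-subunit proteins and Rps15 is a small-subunit protein. The lowest were the tissue-restricted paralogues: Rpl3l at 0.122 ± 0.107, Rpl39l at 0.0432 ± 0.0553 and Rpl10l at 0 in every library. With Rps12l1 these were the 4 members not tested. Their counts over all libraries were 74 for Rpl3l, 28 for Rps12l1, 15 for Rpl39l and 0 for Rpl10l. Members whose gene-table count was a small share of their transcript-table count had very different levels in the tables. Rpl5 was at 2.59 ± 0.489 CPM per kb in the gene table and at 132 ± 48.4 in the transcript table. The cause of a small share was not tested gene by gene.

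Differences were tested gene by gene with edgeR's quasi-likelihood F-test over all 15259 genes tested, and a gene was called at a Benjamini-Hochberg adjusted p under 0.05. Nothing in the labels says that libraries of a group came from separate animals, so the p-values measure the spread between libraries, which may be technical. In the test for any difference among the 4 ages, 41 of 74 members were called, and 55.7% of all genes were. By the transcript table it was 49 of 72 members, against 54.7% of all features.

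Between E15.5 and P1 most estimates were below 0, and more members were called lower than higher. The log2 fold change (P1 over E15.5) had a median of -0.54 over the 74 members, against 0.03 over all genes, and 55 of 74 estimates were below 0. At P1, 27 members (36.5%) were called lower, against 20.9% of all genes, and 7 (9.46%) were called higher, against 25.4% of all genes. With transcript counts, 27 of 72 members (37.5%) were called lower, against 20.1% of features, and 2 (2.78%) higher, against 25.5%, with a median of -0.67. These counts depended on single libraries, and for the refits that follow the share of all genes called is not given. Without E15.5 replicate 3, which stood apart, 12 members were called lower and the median was -0.14. Without P1 replicate 3, 14 were called lower. Inside counting set 2, where E15.5 replicate 2 was the only E15.5 library, 5 members were lower and 12 higher, and the median was 0.08. Such a fit takes its spread from the libraries of the other groups and assumes that the lone library varies like them. Without E15.5 replicate 1 or P1 replicate 1 only 3 members were higher, and without E15.5 replicate 2 there were 4. With a model term for the counting set 13 were lower and 3 higher.

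The members with nearly equal counts in both tables had estimates in the same direction. All 9 members with a gene-table share of 90% or more had estimates below 0 at P1, with a median of -0.90. Of the 9, 5 were called lower (55.6%, against 20.9% of all genes). Rpl4, whose long loop lines the tunnel through which the new peptide leaves, was at 1481, 1307 and 2662 CPM at E15.5 and 1082, 866 and 730 at P1, a fall of 1.03 ± 0.27 (SE) on the log2 scale with an adjusted p of 0.0062. Its groups did not overlap. Rps15 fell from 470, 333 and 923 CPM to 302, 272 and 206 (log2 fold change -1.15 ± 0.34, adjusted p 0.013), and the call was lost without E15.5 replicate 3 or P1 replicate 3. Rps19bp1 fell from 37.2, 26.7 and 62.8 to 18.02, 15.47 and 14.8 (-1.40 ± 0.27, adjusted p 0.00077). Rps3, at the entry of the messenger RNA channel, was at 839, 754 and 1835 CPM at E15.5 and 823, 620 and 535 at P1. Its groups overlapped, and it fell by 0.79 on the log2 scale (adjusted p 0.04). Rps4l is taken up with the tumours below. Rpl8, Rpl22, Rpl32 and Rpl7l1 had estimates of -0.90, -0.33, -0.73 and -0.36 and were not called.

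The largest falls between E15.5 and P1 that did not overlap were in Rpl29, Rpl35, Rpl7a and Rps26. Rpl29, a small protein on the surface of the large subunit, was at 145, 128 and 284 CPM at E15.5 and at 1.72, 41.2 and 22.3 at P1, a log2 fold change of -3.09 ± 1.09 (adjusted p 0.030). Its P1 libraries differed more than 10-fold from one another, and the call was lost without E15.5 replicate 3, P1 replicate 1 or P1 replicate 3. By transcript counts Rpl29 fell by 1.88 on the log2 scale (adjusted p 0.00034), with 412, 343 and 757 CPM at E15.5 and 120, 171 and 121 at P1. Rpl7a was at 190, 186 and 400 CPM and then 67.8, 66.8 and 54.7 (-2.04 ± 0.30, adjusted p 9.5e-05), and -1.57 in the transcript table. Rpl35, whose start is shown above, was at 10.7, 4.76 and 20.5 CPM and then 3.22, 2.87 and 2.60 (-2.06 ± 0.46, adjusted p 0.002). The transcript table gave -0.85 for Rpl35, with an adjusted p of 0.11. Rps26, which sits at the exit of the messenger RNA channel, was at 271, 307 and 444 CPM and then 135, 120 and 84.3 (-1.59 ± 0.34, adjusted p 0.0016).

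Among the 7 members called higher at P1, the 4 with the largest change and no overlap were Rps2, Rps18, Rpl21 and Rpl13, and for each of them the tables disagreed on the size. Rps2 was at 4.19, 3.09 and 4.25 CPM at E15.5 and 102, 86.3 and 65.3 at P1 in the gene table (log2 fold change 4.44 ± 0.67, adjusted p 9.8e-05). Its transcript-table levels were 393, 335 and 878 CPM and then 451, 386 and 300 (log2 fold change -0.50, adjusted p 0.26), so the sign was the opposite. The gene-table count of Rps2 was 0.634% of its transcript-table count on average at E15.5 and 14.2% in the other libraries. Rpl21 showed the same to a lesser degree, with shares of 11.7% and 50.4%. It was at 11.1, 6.51 and 15.49 CPM and then 77.4, 67.5 and 53.5 in the gene table (2.57 ± 0.28, adjusted p 5.3e-06), and had a log2 fold change of 0.54 (adjusted p 0.089) in the transcript table. Rpl13 was at 12.2, 7.35 and 19.1 CPM and then 48.9, 32.1 and 28.0 (1.48 ± 0.55, adjusted p 0.040), and 0.41 in the transcript table (adjusted p 0.53). Its call was lost when either of E15.5 replicates 1 and 2 or P1 replicates 1 and 2 was left out.

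Rps18 and one of its pseudogenes changed in opposite directions. Rps18 itself was at 6.06, 3.51 and 5.70 CPM at E15.5 and 119, 101 and 74.4 at P1 (4.24 ± 0.29, adjusted p 2e-07), and it was called in the transcript table too (2.58, adjusted p 0.00017). Rps18-ps3, a copy left out of the family by its symbol, was at 282, 233 and 507 CPM at E15.5 and 4.94, 6.24 and 3.88 at P1, and fell by 6.08 on the log2 scale (adjusted p 9.6e-05). Added together, Rps18 and Rps18-ps3 were at 288, 236 and 512 CPM at E15.5 and 124, 107 and 78.3 at P1, a log2 fold change of -1.75 ± 0.29 (adjusted p 0.00024). The sign of the change was thus the opposite with the pseudogene's reads included. P7 replicate 2 was the only later library with much Rps18-ps3, at 101 CPM. Over the 72 members compared, the gene-table share lay below that of every other library in all 3 E15.5 libraries for 10 members, and above it for 2. No such count is given for genes outside the family, so it cannot be said if this is particular to the members.

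**Figure D3:**
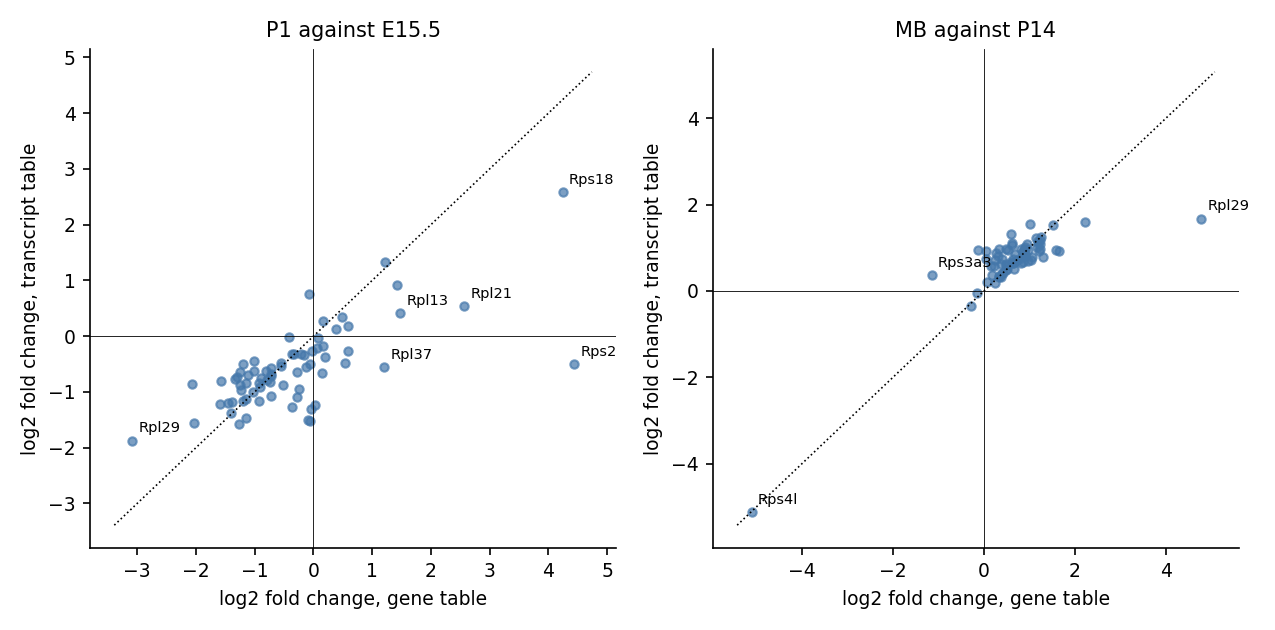
log2 fold changes of members in the gene table (horizontal) and the transcript table (vertical) for P1 against E15.5 (left) and MB against P14 (right); points are genes and the dotted line marks equal values. Rps2, Rps18, Rpl21, Rpl13 and Rpl37 lie right of the line on the left, and Rps4l lies at -5.11 and -5.12 on the right.

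The other members called higher at P1 were Rpl37 (1.21, adjusted p 0.030; -0.55 in the transcript table), Rpl22l1 and Rpl39. Rpl22l1 is a paralogue of Rpl22, a large-subunit protein that binds RNA. Rpl22l1 was at 5.58, 5.26 and 16.2 CPM at E15.5, 28.4, 17.9 and 17.2 at P1, and 7.80, 6.46 and 3.20 at P7. It was at 11.1, 13.8 and 11.03 at P14 and 7.42, 8.04 and 14.1 in MB. It was highest at P1 and lowest at P7, with no overlap between these groups. It rose by 1.21 ± 0.43 from E15.5 to P1 on the log2 scale (adjusted p 0.031), and its change from P1 to P7 was -1.86 ± 0.44 (adjusted p 0.035). The transcript table called both changes, at 1.34 and -2.01. Rpl22 had 268, 247 and 524 CPM at E15.5 and 340, 273 and 215 at P1, and was called in none of the 6 comparisons.

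Rpl39, the short protein that lines the peptide exit tunnel, had a similar course. It was at 17.4, 15.9 and 51.2 CPM at E15.5, 96.3, 73.7 and 57.2 at P1, and 15.8, 11.3 and 24.8 at P7. Then it was at 35.9, 43.9 and 40.7 at P14 and 30.9, 47.9 and 82.8 in MB. It rose by 1.42 ± 0.44 from E15.5 to P1 (adjusted p 0.016), fell by 2.13 from P1 to P7 (SE 0.45, adjusted p 0.023) and was higher in MB than at P7 by 1.64 ± 0.44 (adjusted p 0.0094). By transcript counts the first change was 0.91 and missed the threshold (adjusted p 0.081), and the other two were called. For both Rpl22l1 and Rpl39 the call from E15.5 to P1 was lost without E15.5 replicate 1 or 2 or P1 replicate 1, and that of Rpl39 against P7 in MB without MB replicate 3.

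After birth the family's estimates were mostly below 0, and few members were called. In the postnatal steps no share of all genes is given for the unadjusted counts, DESeq2 or the refits. From P1 to P7, 56 of 74 estimates were below 0 with a median of -0.27. Rpl39 and Rpl22l1 were the 2 members called lower (2.70% against 1.74% of all genes), and no member was called higher, against 1.4% of all genes. At an unadjusted p under 0.05 edgeR had 10 lower and 4 higher. The transcript table called the same 2 genes lower (1.7% of all features were) and none higher (1.26% of features). There the unadjusted counts were 9 and 0. In the gene table DESeq2 called 7 lower and 1 higher. With any of 4 libraries left out (P1 replicates 1 and 2, P7 replicates 1 and 2) edgeR called none, and without P7 replicate 3 it called 1.

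From P7 to P14, 44 of 74 estimates were below 0 with a median of -0.11. In this step 5 members (6.76%) were called lower, against 4.51% of all genes, and none higher by edgeR, against 5.81%. At an unadjusted p under 0.05 it was 14 lower and 3 higher, and DESeq2 called 7 and 2. The 5 were Rpl35 (-1.67 ± 0.45, adjusted p 0.032), Rps26 (-1.31 ± 0.34, 0.028), Rpl7a (-1.07 ± 0.30, 0.035), Rps6 (-1.05 ± 0.30, 0.040) and Rpl4 (-0.91 ± 0.27, 0.044). By transcript counts Rpl35 changed by -0.43 (adjusted p 0.54). Its gene-table share was 3.23% to 7.25% in counting set 1, which holds P7, and 1.53% to 3.12% in set 2, which holds P14. Set and age cannot be told apart for this fall. Rps6, the substrate of the S6 kinases, was at 4.06, 7.04 and 2.81 CPM at P7 and 2.43, 2.14 and 2.17 at P14. Rps26 was at 112, 249 and 271 CPM at P7 and 71.0, 92.0 and 92.7 at P14, and Rpl7a at 97.9, 146 and 107 and then 47.4, 62.2 and 58.1. None of the 5 overlapped between the groups. With transcript counts Rpl36a, Rps26 and Rpl4 were lower (4.64% of features were) and none higher (5.39%), with 11 and 1 at an unadjusted p under 0.05. The calls rested on single libraries: 3 were left without P7 replicate 1, 1 without P7 replicate 3, and none without P7 replicate 2 or any P14 library.

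From P1 to P14, where all libraries were in counting set 2, 69 of 74 estimates were below 0, with a median of -0.42 against 0.01 over all genes. Rps3a3 (-1.33 ± 0.37, adjusted p 0.040) and Rpl10 (-0.85 ± 0.25, adjusted p 0.049) were called lower, 2.70% of members against 5.31% of all genes, and no member was called higher by edgeR or DESeq2, against 3.63%. At an unadjusted p under 0.05 it was 12 lower and 0 higher. No call was left without P1 replicate 1 or 2 or P14 replicate 2 or 3, and 1 was left without P14 replicate 1. Rpl10, which joins the large subunit late, in the cytoplasm, was at 18.4, 22.8 and 14.7 CPM at P1 and 8.73, 11.8 and 10.4 at P14. By transcript counts 71 of 72 estimates were below 0, with a median of -0.53. Of these Rps3a3 alone was called lower, against 5.4% of features, and none higher, against 2.83%, with 11 and 0 at an unadjusted p under 0.05. A fit on the 2 groups alone called 18 members lower.

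**Figure D4:**
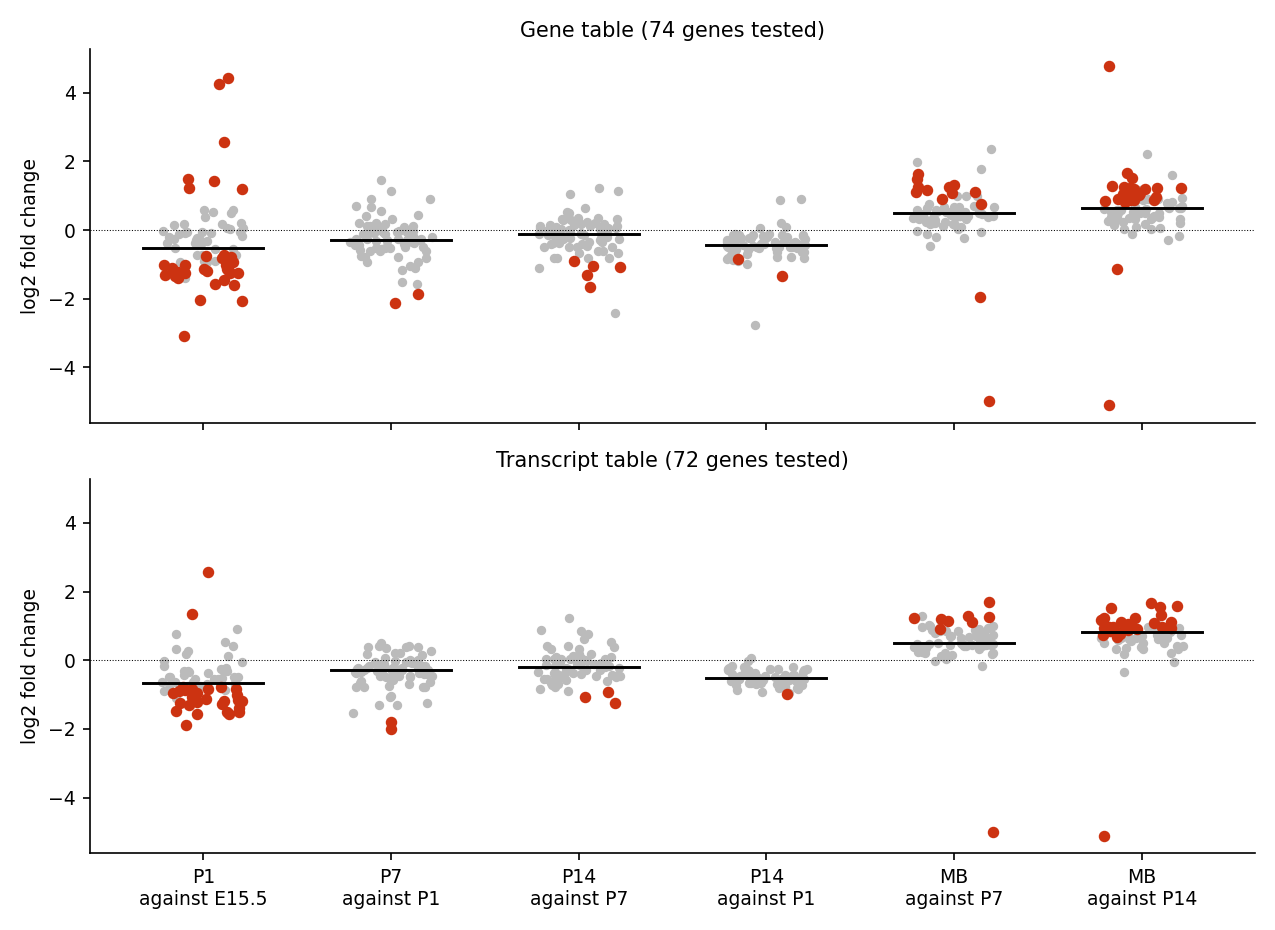
log2 fold changes of members in 6 comparisons (first group over second) in the gene table (top) and the transcript table (bottom). Each point is a gene, red where the adjusted p is under 0.05, and bars are medians: the gene-table medians are -0.54, -0.27, -0.11 and -0.42 between ages and 0.49 and 0.66 for MB against P7 and P14.

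In tumour cells most estimates were above 0 against both P7 and P14, and 1 tested member, Rps4l, was under 1 CPM in every MB library. Against P14, 69 of 74 estimates were above 0, with a median log2 fold change of 0.66 against 0.01 over all genes. Here 24 members (32.4%) were called higher, against 22.9% of all genes, and 2 (2.70%) lower, against 27.2%. With transcript counts 31 of 72 (43.1%) were higher, against 23.5% of features, and 1 (1.39%) lower, against 26.2%, with a median of 0.81. Against P7, 66 of 74 estimates were above 0 with a median of 0.49. In that comparison 11 members (14.9%) were called higher, against 13.7% of all genes, and 2 (2.70%) lower, against 20.7%. The transcript table called 8 of 72 (11.1%) higher, against 13.6% of features, and 1 lower (Rps4l), against 20.4%. Both comparisons use the same 3 MB libraries.

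The count of calls depended on the MB libraries. MB replicate 1, the tumour library in counting set 1 and the one with the most records of several alignments, had the lowest share of family counts. Without it 40 members were called higher against P14 and 21 against P7. The medians were then 0.95 and 0.67, against -0.01 and -0.04 over all genes. For the refits in this paragraph the share of all genes called is not given, so a shift in their counts may not be particular to the family. Inside counting set 2, with MB replicates 2 and 3, 42 members were higher than at P14 and the median was 0.95. Inside counting set 1, with MB replicate 1 alone against P7, 3 were higher and 4 lower and the median was 0.05, again with the spread taken from the other libraries. Without P7 replicate 2, 5 were higher than at P7, and the same count came without MB replicate 2. Without MB replicate 3 there were 3, and without P7 replicate 3 there were 7. A correction for a trend with transcript length gave 46 members higher than P14 and 19 higher than P7, with a shift of the median over all genes from 0.01 to 0.11 and from 0.02 to 0.10.

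Rps4l stood out from all other members in the tumours. It is a single-exon gene on chromosome 6 (148303178-148304120, + strand, mm9), a paralogue of the X-linked small-subunit gene Rps4x, and 97.5% of its transcript-table count was in the gene table. Rps4l was at 40.6, 39.0 and 99.7 CPM at E15.5 and 32.4, 24.5 and 21.8 at P1. At P7 it was at 23.9, 15.6 and 26.0 CPM, and at P14 at 18.8, 28.8 and 23.8. In MB it was at 0.555, 0.733 and 0.761 CPM. All 3 tumour libraries lay more than 10-fold below every precursor library, in both counting sets. The log2 fold change was -4.98 ± 0.41 against P7 (adjusted p 4e-07) and -5.11 ± 0.41 against P14 (adjusted p 2.3e-07), and the transcript table gave -5.01 and -5.12. Between the precursor ages it was called lower at P1 than at E15.5 (-1.19 ± 0.33, adjusted p 0.0086), a call that was lost without E15.5 replicate 3. Both MB calls held with any 1 library left out. Rps4x was at 232, 169 and 448 CPM at E15.5, 319, 247 and 193 at P1, and 153, 115 and 183 at P7. It was at 120, 158 and 141 at P14 and 157, 183 and 261 in MB, and was called in no comparison.

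Rps3a3 was the other member called lower in MB in the gene table, and it is a single-exon copy of Rps3a1, the 6-exon gene of the small-subunit protein Rps3a. Rps3a3 was at 126, 107 and 252 CPM at P7, 139, 69.5 and 69.7 at P14 and 37.3, 40.3 and 47.9 in MB, with log2 fold changes of -1.95 ± 0.38 against P7 (adjusted p 0.00097) and -1.15 ± 0.37 against P14 (adjusted p 0.019). The transcript table gave -0.17 and 0.37 and called neither. In the gene table the call against P14 was lost without MB replicate 1 or 2 or P14 replicate 1. Rps3a3 took 49.1% to 98.7% of the summed counts of Rps3a1, Rps3a2 and Rps3a3 in the precursor libraries and 11.4% to 25.4% in MB. The sum of the 3 genes was 184, 194 and 256 CPM at P7, 144, 142 and 127 at P14 and 328, 158 and 215 in MB. The summed level in MB thus overlapped with P7 and lay above P14, while the split among the copies differed.

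Rpl32 and Rpl4, members with nearly equal counts in both tables, were both called higher in MB than at P14, and Rpl32 also over P7. Rpl32, on chromosome 6 and part of the large subunit, was at 342, 274 and 694 CPM at E15.5, 336, 247 and 207 at P1, and 173, 161 and 254 at P7. It was at 130, 187 and 168 at P14 and 483, 422 and 492 in MB. All MB libraries lay above all postnatal libraries. The log2 fold change was 1.25 ± 0.31 against P7 (adjusted p 0.0051) and 1.52 ± 0.31 against P14 (adjusted p 0.0008), and 1.29 and 1.53 in the transcript table. Both calls held with any 1 library left out. Rpl4 was at 959, 1489 and 1112 CPM at P7, 564, 678 and 647 at P14 and 1749, 1381 and 1349.9 in MB, and was called against P14 (1.25 ± 0.27, adjusted p 0.0014) but not against P7 (0.33 ± 0.27, adjusted p 0.37). Of the 9 members with a share of 90% or more, 8 had estimates above 0 against P14. Of the 9, 3 were called higher (33.3%, against 22.9% of all genes), the last of them Rps3 (0.88, adjusted p 0.022). Rps4l was called lower (11.1% of the 9, against 27.2% of all genes).

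Besides Rpl32, the members called highest over P7 with no overlap were Rpl39, given above, Rps28 and Rps18. Rps28, a small-subunit protein near the messenger RNA exit, was at 3.799, 4.17 and 6.32 CPM at P7 and 7.02, 11.9 and 11.6 in MB (1.10 ± 0.34, adjusted p 0.021; by transcript counts 1.28, adjusted p 0.071). Its call was lost without MB replicate 2 or 3 or P7 replicate 1 or 2. Rps18 was at 96.5, 54.0 and 84.4 CPM at P7, 53.0, 81.4 and 77.1 at P14 and 145, 177 and 174 in MB. Its change was 1.08 ± 0.26 against P7 and 1.23 ± 0.26 against P14, and both were called in both tables. With Rps18-ps3 added, the change against P7 was 0.60 and missed the threshold (adjusted p 0.12).

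Over P14 the largest called changes were in Rpl29, Rpl6l, Rpl32 and Rps6. Rpl29 was at 0.877, 1.18 and 7.65 CPM at P14 and 50.2, 141 and 73.0 in MB (4.77 ± 1.19, adjusted p 0.0037). Its transcript-table levels were 68.4, 94.2 and 98.8 and then 171, 375 and 288 CPM (1.67, adjusted p 0.00058), so the direction held and the size was much smaller. Rpl6l is a single-exon copy of Rpl6. It was at 14.8, 16.9 and 16.5 CPM at P14 and 64.3, 49.2 and 38.2 in MB (1.65 ± 0.40, adjusted p 0.0027), while Rpl6 and Rpl6l together were at 54.4, 71.5 and 68.6 and then 147, 146 and 134. Rps6 was at 6.27, 5.15 and 5.12 CPM in MB, above every P14 library (1.29 ± 0.30, adjusted p 0.0024).

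**Figure D5:**
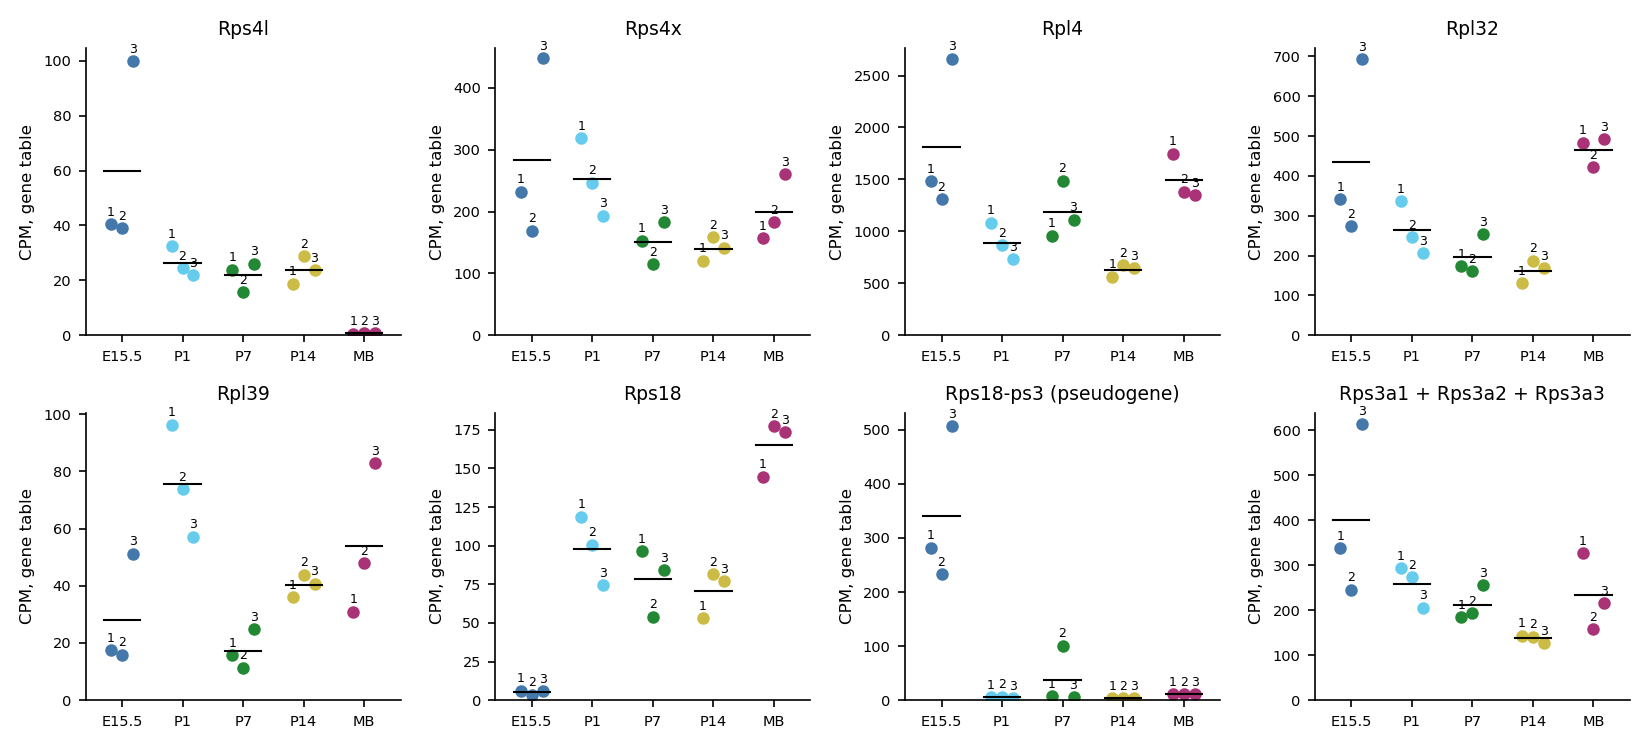
CPM in the gene table (axes from 0) by group for 6 members, for the pseudogene Rps18-ps3 and for the sum of the 3 Rps3a genes; points are libraries with their replicate number and bars are group means. Rps4l is under 1 CPM in all 3 MB libraries while Rps4x is not low there, and Rps18-ps3 is at 233 to 507 CPM at E15.5 and at most 101 elsewhere.

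Genes lower at P1 than at E15.5 and genes higher in MB than at P14, 2 comparisons without a shared library, had 16 members in common. These were 59.3% of the 27 members of the first list and 66.7% of the 24 of the second. Over all genes 708 were in both lists, 22.2% of the first and 20.3% of the second. With 1 library left out, the first list held 12 to 31 members and the second 17 to 40. The fewest in the first list came without E15.5 replicate 3, and the overlap in those fits is not given. Most members moved with one another, so those in common are not independent of one another. By transcript counts 18 members were in both, 66.7% and 58.1% of the lists, and over all features 804, or 23.1% and 19.7%.

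Some members are also known for roles outside the ribosome or in inherited anaemia. Rpl5 and Rpl11, which bind the 5S ribosomal RNA and can hold the p53 regulator Mdm2, were not called in any comparison of the gene table. Rpl5 was at 4.80, 3.09 and 4.36 CPM at E15.5 and 5.92, 6.82 and 5.20 at P1, and Rpl11 at 7.98, 5.68 and 9.98 and then 8.58, 6.75 and 4.71. Their gene-table shares were small, at 1.51% for Rpl5 and 3.37% for Rpl11. The transcript table called Rpl11 lower at P1 (-0.94, adjusted p 0.014) and Rpl5 higher in MB than at P14 (0.73, adjusted p 0.032). Rps19, mutated in Diamond-Blackfan anaemia, was at 62.7, 36.2 and 148 CPM at E15.5, 104, 89.5 and 65.8 at P1, and 52.6, 22.9 and 94.3 at P7. It was at 49.3, 68.3 and 63.2 at P14 and 40.1, 136 and 162 in MB. Its libraries differed several-fold within E15.5, P7 and MB, and it was not called. Rps24, another gene of that anaemia, was at 199, 204 and 268 CPM at P7, 115, 136 and 132 at P14 and 234.6, 266 and 248 in MB. It was called higher in MB than at P14 (0.96 ± 0.33, adjusted p 0.023) and lower at P1 than at E15.5 (-0.93 ± 0.33, adjusted p 0.030). Inside counting set 2 the latter estimate was 0.062. The MB call was lost without MB replicate 2 or any P14 library, and the other without E15.5 replicate 3 or P1 replicate 2 or 3. Rps24 was not matched in the transcript table. Rpl10 rose in MB over P7 (0.90 ± 0.25, adjusted p 0.012) and P14 (0.97 ± 0.25, adjusted p 0.005), with 19.4, 19.2 and 22.3 CPM in MB. The call over P7 was lost without P7 replicate 2 or 3, and the transcript table called neither.

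Rps27a, made as a fusion with ubiquitin, was at 5.73, 7.47 and 6.42 CPM at P14 and 13.7, 13.997 and 12.6 in MB (1.04 ± 0.28, adjusted p 0.0066). The transcript table did not call this difference, and the gene-table share of Rps27a was 8.45%. Its pseudogene Rps27a-ps2 followed the counting set and not the group. It was at 0.0552 to 0.238 CPM in the 6 libraries of set 1 and at 35.1 to 90.1 CPM in the 9 of set 2, E15.5 replicate 2 included. With the pseudogene counts added, the sum was lower at P7 than at P1 (-3.22 on the log2 scale, adjusted p 0.031). It was higher at P14 than at P7 (2.48, adjusted p 0.039) and higher in MB than at P7 (3.00, adjusted p 0.0045). P7 lies wholly in set 1 and P1 and P14 wholly in set 2, so these values cannot be read as changes of Rps27a with age. The sum was not called in MB against P14 (0.52, adjusted p 0.54). For Rpl35 and Rps7 the gene-table share also lay apart between the sets, at 3.23% to 7.25% in set 1 and 1.53% to 3.12% in set 2 for Rpl35, and at 1.93% to 3.52% and 4.16% to 7.48% for Rps7.

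In the remaining paralogue pairs, calls in the gene table fell on 1 gene of the pair or on a copy. Rpl7 was at 233, 229 and 507 CPM at E15.5 and 228, 191 and 159 at P1 and was called lower (-0.75 ± 0.29, adjusted p 0.049), a call lost without E15.5 replicate 3 or P1 replicate 2 or 3. Its relative Rpl7l1, a factor of large-subunit assembly, was at 113, 107 and 164 and then 114, 100 and 83.9 and was not called. Rpl36a was called lower at P1 than at E15.5 (-1.26 ± 0.29, adjusted p 0.0025) and higher in MB than at P14 (1.02 ± 0.29, adjusted p 0.0086), and Rpl36al was called in neither, with estimates of -0.52 and 0.24. The transcript table called Rpl36al lower at P1 (-0.88, adjusted p 0.028). Rps27 was at 1.11 to 3.60 CPM in all libraries and Rps27l, known as a p53 target, at 31.7 to 89.6. Neither was called in the gene table, and the transcript table called Rps27l higher in MB than at P14 (0.86, adjusted p 0.031). Rps27rt is a single-exon copy whose annotated start resembles that of Rps27 above. In the gene table it fell from E15.5 to P1 (-1.57, adjusted p 0.00036) and rose in MB over P14 (1.07, adjusted p 0.0046). Its gene-table share was 20.6%, and the transcript table called neither change.

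By subunit, from E15.5 to P1, 16 of 42 Rpl and 11 of 32 Rps members were called lower (38.1% and 34.4%, against 20.9% of all genes), with medians of -0.37 and -0.63. Against P14, MB was called higher in 14 of 42 Rpl and 10 of 32 Rps members (33.3% and 31.2%, against 22.9% of all genes), with medians of 0.62 and 0.80. The difference between subunits was not tested. The 11 members whose annotated start had the pyrimidine run had medians of -0.72 from E15.5 to P1 and 0.58 in MB against P14, and the 44 tested members without it -0.26 and 0.63.

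Related genes were counted from lists for comparison. Of all genes, 20.9% were lower and 25.4% higher at P1 than at E15.5. In MB 22.9% were higher and 27.2% lower than at P14, and 13.7% higher and 20.7% lower than at P7. Of 5 ribosomal proteins outside the symbol rule, Rplp0 and Rpsa were called lower at P1 than at E15.5 (-1.58 and -1.55), and Rplp0, a protein of the large-subunit stalk, was higher in MB than at P14 (2.01 ± 0.37, adjusted p 0.00039) and P7 (1.08). Of 18 translation factors and other TOP messenger RNAs, 7 (38.9%) were lower at P1 than at E15.5 and none higher, with Eif3h (-1.45), Eef1g (-1.39) and Eef1a1 (-1.24) the largest. In MB 8 of the 18 (44.4%) were higher than at P14 and none lower, led by Nap1l1 (1.34) and Npm1 (1.17), and 1 (5.56%) was higher than at P7, under the share of all genes.

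Of 29 genes of ribosome biogenesis, 24 (82.8%) were higher in MB than at P14 and 15 (51.7%) higher than at P7, against 22.9% and 13.7% of all genes, and none was lower in either. Polr1b and Polr1a, the largest subunits of RNA polymerase I, rose by 2.13 and 1.92 against P14 and by 1.85 and 1.54 against P7. Fbl, the methyltransferase of small nucleolar RNPs, rose by 1.59 and 1.27. From E15.5 to P1, 8 of the 29 (27.6%, near the 20.9% of all genes) were lower and none higher, and from P7 to P14, 6 (20.7%, against 4.51%) were lower, Dkc1 (-1.13) and Nop58 (-0.97) among them.

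Of 73 mitochondrial ribosomal protein genes, 36 (49.3%, against 20.9% of all genes) were lower at P1 than at E15.5 and none higher, with a median of -0.61 and Mrpl14 (-2.06) and Mrpl32 (-1.53) the largest. In MB 19 (26%, near the 22.9% of all genes) were higher than at P14 and 1 lower, and 3 (4.11%, under the 13.7% of all genes) were higher than at P7. Their medians against P14 and P7 were 0.35 and 0.17. Of 13 genes of the mTOR pathway and TOP regulation, 3 (23.1%) were higher in MB than at P14 and none lower, a share of higher genes like that of all genes. They were Eif4ebp1, Larp4 (0.94) and Mlst8 (0.41). Eif4ebp1, an inhibitor of cap-dependent translation, was at 64.3 ± 48.3 CPM (SD, n = 3) in MB and 3.93 ± 0.234 at P14 (4.03 ± 0.61, adjusted p 6.4e-05). Of the 10 S6 kinase genes that the symbol rule left out, 3 (30%, near the 27.2% of all genes) were lower in MB than at P14 and 1 higher, with Rps6ka1 (-3.81) and Rps6kl1 (-3.19) the largest. Of 7 tested genes of the Myc family, 5 (71.4%) were higher in MB than at P14 and 4 (57.1%) higher than at P7, with Myc (3.39 and 2.63), Mycl (2.26 and 1.45) and Mycn (2.06 and 1.21) the largest. Of 15 tested pseudogenes of the family, 5 (33.3%) were higher in MB than at P14 and none lower, and 7 (46.7%) were lower at P1 than at E15.5 and 1 higher.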

How the data were processed

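The authors deposited raw read counts per gene, per transcription start site model and per transcript for 15 libraries; per the submitters' processing notes Trimmomatic, TopHat, StringTie and HTSeq were used with build mm9, without versions. Symbols were looked up by Ensembl ID and found for 20358 of 21889 genes. Lines that name no gene were left out of library sizes. Depth was 12597472 to 43443132 counts, and a member with few counts has a wider error. Of the transcripts, 25114 of 28246 were matched to a gene and the longest was used.

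Counts were tested with edgeR 4.0.16 in R 4.3.3: filterByExpr (minimum count 10, total 15), TMM scaling, 1 mean per group over all libraries (10 residual degrees of freedom), the quasi-likelihood F-test and Benjamini-Hochberg adjustment over 15259 genes. Log2 CPM used a prior count of 2. DESeq2 1.42.0 was an alternative. Fits inside 1 counting set and with pseudogene counts added were chosen after seeing the data. The fits were tested on simulated data. Replicate numbers were not used as a pairing in the main fit.

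Members, lists and tests were chosen with earlier results of these data known. Named were fixed members and paralogues, per comparison up to 4 called members each way with the largest changes, at least 5 CPM and no overlap, the 3 highest and 3 lowest per kilobase, the 4 that differed most between tables (Rps2, Rpl29, Rpl21, Rps3a3), and the 3 genes most like the family; of the list genes, those called with the largest changes. The fixed Rpl3, Rpl13a and Rpl41 were not analysed here. Other members were named after their values were seen.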

Additional observations from a re-analysis of the deposited data

How the results depend on the processing

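The numbers of members called varied between fits. The share of all genes called in each refit is not given here, so a shift in these numbers may not be particular to the family. From E15.5 to P1 (7 higher, 27 lower) the transcript table gave 2 higher, a term for the counting set 3 and 13, the length trend correction 11 higher, and counting set 2 alone, chosen after seeing the data and with a single E15.5 library, 12 and 5. Leaving out 1 library gave 3 to 9 higher and 12 to 31 lower. From P1 to P7 (0 and 2) a fit on the 2 groups gave 1 higher, the length correction 2 and 5, DESeq2 1 and 7, the TSS models gave 1 lower and the counting set term 0, and leaving out 1 library 0 to 3 lower. From P7 to P14 (0 and 5) the 2 groups alone gave 4 and 13, the length correction 1 and 14, DESeq2 2 higher, pseudogene counts added 1 higher, transcripts and TSS models each 3 lower, the counting set term 0, and leaving out 1 library 0 to 3. From P1 to P14 (0 and 2) no low-count filter, the transcript table and the TSS models gave 1 lower, the 2 groups alone 18, the length correction 9, counting set 2 gave 4, and leaving out 1 library 0 to 2. For MB against P7 (11 and 2) the 2 groups alone gave 5 higher, the length correction 19, counting set 1, with a single MB library, gave 3 and 4, transcript counts 1 lower, and leaving out 1 library 3 to 21 higher. For MB against P14 (24 and 2) the length correction gave 46 higher, counting set 2 gave 42, transcript counts 1 lower, and leaving out 1 library 17 to 40 higher. The cause of these differences was not tested.

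The mean share of counts was 1.82%, 1.35%, 1.09%, 0.929% and 1.51% (E15.5, P1, P7, P14, MB) in the transcript table, and 0.785%, 0.562%, 0.483%, 0.390% and 0.646% in the TSS models. Of 844 refitted values of named members, 690 kept their call, 150 lost it and 4 changed sign: Rps2 (-0.50, transcript table) and Rps18 (-1.75, pseudogene added) from E15.5 to P1, Rps24 there (0.062, set 2), and Rps3a3 in MB against P14 (0.37, transcript table).

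With the replicate number as a block, 1 member was lower from P1 to P7, 3 from P7 to P14 and 1 from P1 to P14; 6 of 51 named calls were lost. Of those 51, 26 were called in every fit that left out 1 library. Same-numbered libraries correlated from -0.24 to 0.33 in their deviations from the group means. With 3 libraries per group this cannot settle if the numbers mark a pairing.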
